A study of Mus musculus with 5 samples.

Results

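Apolipoproteins are the protein components of plasma lipoproteins, the particles that carry triglyceride and cholesterol in blood, and the liver is one of their main sources. This account follows 10 of their genes, out of the 14348 genes with at least 1 mRNA cluster in Ago HITS-CLIP tables of the developing mouse liver: Apoa1, Apoa2, Apoa4, Apoa5, Apob, Apoc1, Apoc3, Apoe, Apoh and Apom. The members were chosen by symbol, with earlier results of these data known. A cluster was counted for a gene when the deposited table placed it in the 3′UTR, the coding sequence (CDS) or the 5′UTR of that gene. Between 9573 and 12066 genes had such a cluster at each stage, and the tables listed 7 of the 10 members at e12.5, another set of 7 at e15.5, and all 10 from e18.5 on.

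In HITS-CLIP, ultraviolet light bonds RNA to the Ago proteins that hold miRNAs, and the RNA recovered with Ago antibodies is sequenced. The livers came from C57BL/6 mice with no other treatment or allele, aged e12.5, e15.5 or e18.5 before birth and P7 or adult after it, and were crosslinked 3 times with 254 nm light at 0.2 J/cm2. Ago2 antibodies were used at every stage and Ago1 antibody was added for P7 and adult, so antibody and postnatal stage cannot be told apart. The methods speak of replicate Ago2 experiments and the study names a further e18.5 library, but the labels give 1 table per stage and no replicate, so every difference below is a difference between tables, no test between stages was possible, and fewer cells of a type and less RNA per cell cannot be told apart in whole liver.

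Apob is the structural protein of very low density and low density lipoproteins. Apoa1 and Apoa2 are the main proteins of high density lipoprotein, and Apom is carried on the same particles. Apoe is a ligand of the low density lipoprotein receptor. Apoa5 promotes and Apoc3 inhibits the clearance of triglyceride by lipoprotein lipase, Apoc1 and Apoa4 are exchangeable proteins of several particle classes, and Apoh is a phospholipid-binding plasma protein also called beta-2-glycoprotein I. Apoa1, Apoc3, Apoa4 and Apoa5 lie next to each other on chromosome 9 between positions 46228580 and 46271919 (mm10), and Apoc1 and Apoe are neighbours on chromosome 7 between 19689481 and 19699052. miRNAs bound by Ago pair with mRNA mainly through bases 2 to 8, the seed, and a cluster with a seed match is a candidate target site, not a proven one.

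The sites that the results below turn on are shown first, because a few positions held a large part of each mRNA's reads. Each fragment is the mRNA strand 5′ to 3′ as deposited, with the bases of the listed seed-match type in capitals, which for 7mer-A1 and 8mer sites include an A opposite the first base of the miRNA. All 3540 distinct member sites, fragment for fragment, had the sequence of GRCm38 at the listed coordinates. The Apoa1 and Apoa2 fragments hold the start codon of their mRNAs, the Apoc3, Apob and Apoe fragments lie in the clusters with the most reads of those genes, and the Apoh fragment ends close to the stop codon.
Apoa1, miR-29a-3p, chr9:46228953-46228974, plus strand: caggatgaaagctgTGGTGCTg
Apoa2, miR-16-5p, chr1:171225305-171225326, plus strand: gtctgccatcatgaaGCTGCTc
Apoc3, miR-16-5p, chr9:46234509-46234527, minus strand: agagggatcctTGCTGCTg
Apob, miR-139-5p, chr12:8011277-8011298, plus strand: aagtatctccatttgCTGTAGA
Apoe, miR-342-5p, chr7:19696401-19696422, minus strand: taccaaccccatcatCACCCCA
Apoh, miR-223-3p, chr11:108414268-108414286, plus strand: ggatgcatcagAACTGACA

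The mature miRNAs matched to these sites, from RefSeq for GRCm38.p6, are given with the seed in capitals. The Apoa2 and Apoc3 fragments are both matched by the seed of miR-16-5p, whereas the other fragments are matched by different seeds.
miR-16-5p: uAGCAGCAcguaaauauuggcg
miR-29a-3p: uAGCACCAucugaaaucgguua
miR-139-5p: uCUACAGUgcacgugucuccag
miR-223-3p: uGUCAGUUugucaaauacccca
miR-342-5p: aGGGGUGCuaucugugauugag

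The level of a gene was taken as the highest read number of each of its clusters, summed over the clusters and scaled to the summed reads of all clusters of the table (reads per 1e6 reads, rpm). In order of age these sums were 44867326, 16519549, 13008703, 16499162 and 24885228 reads, and mRNA clusters made up 13.5% of them in adult, 20.5% at P7 and at least 23.3% before birth. Below, values given in order of age run from e12.5 to adult. Because that share differed between stages, levels were also scaled to mRNA clusters alone. No cluster under 5 reads is listed, so a gene without a cluster is called not listed and gets no ratio. The embryonic tables each hold 2 lists of clusters that the sources do not tie to replicate experiments or to anything else, and the summed members differed between the lists of one table by 1.83-fold at e12.5, 1.86-fold at e15.5 and 1.90-fold at e18.5. Single members differed more: 3 of 6, 3 of 6 and 4 of 9 members present in both lists were at least 2-fold apart at e12.5, e15.5 and e18.5, by up to 3.08-fold, 2.85-fold and 3.22-fold. For many members the 2-fold threshold used below is therefore no larger than the difference between lists of the same stage.

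The 10 apolipoprotein mRNAs together took a growing share of the Ago-bound reads. Their summed level was, in order of age, 372 rpm (95% Poisson interval 367 to 378), 927 rpm (912 to 941), 1832 rpm (1809 to 1855), 3017 rpm (2990 to 3043) and 3553 rpm (3529 to 3576). These intervals, like all others here, cover counting error only, since there is 1 table per stage. They treat every counted read or cluster as independent, which duplicate reads would break. As a share of mRNA cluster reads the members made up 0.160%, 0.312%, 0.610%, 1.47% and 2.64% in the same order. Each stage was thus above the one before it on both scales. Apob supplied 34.5% of the members' reads at e12.5 and 22.5% in adult, Apoe 16.0% and 26.5%, and Apoc3 0.245% and 20.1%.

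**Figure D1:**
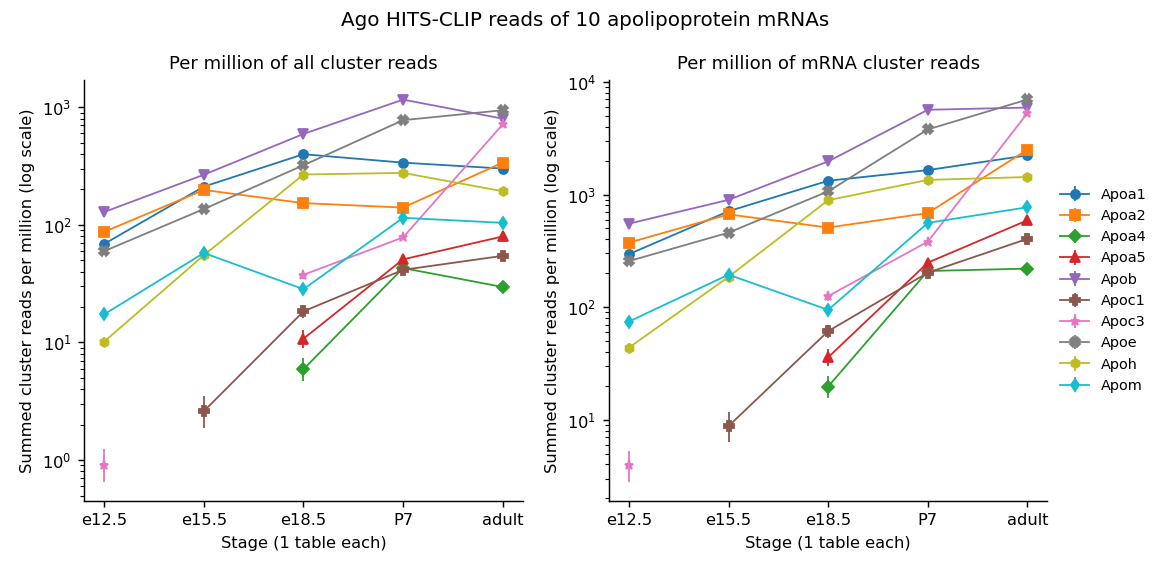
Summed cluster reads of each apolipoprotein gene by stage (log scale), scaled to all cluster reads on the left and to mRNA cluster reads on the right, with exact Poisson 95% intervals (counting error only) and 1 table per stage; a missing point is a gene not listed. Apoc3 stands lowest at e12.5 (0.914 rpm) and joins Apoe and Apob at the top in adult (714 rpm), whereas Apoa1 stays between 301 and 398 rpm from e18.5 on.

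Apob, with the longest mRNA of the members (13934 nt), had 128, 266, 592, 1159 and 798 rpm in order of age. Apob was thus highest at P7 on this scale, and ranked 8th of all genes there and in adult. At P7, however, 1 cluster held 45.6% of its reads, against 12.2% for its largest cluster in adult. Scaled to mRNA clusters, Apob was slightly higher in adult (5928 against 5666 reads per 1e6). Apoe had 59.7, 136, 321, 775 and 942 rpm in order of age, higher at each stage than at the one before, and ranked 7th of all genes in adult.

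Of the high density lipoprotein genes, Apoa1 had 68.8, 211, 398, 338 and 301 rpm in order of age. Apoa2 had 87.1, 198, 153, 140 and 338 rpm in order of age. Apoa1 was therefore highest before birth on this scale and Apoa2 in adult; scaled to mRNA clusters, Apoa1 was also highest in adult (2232 reads per 1e6 mRNA cluster reads against 1326 at e18.5). Apom had 17.3, 57.6, 28.4, 115 and 104 rpm in order of age, so that the e18.5 value lay below both neighbouring stages.

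The regulators of triglyceride clearance were near or below the limit of listing early on. Apoc3 had 0.914 rpm at e12.5, from a single cluster of 41 reads, was not listed at e15.5, and then had 37.6, 78.2 and 714 rpm from e18.5 to adult. Apoa5 was not listed at e12.5 or e15.5 and had 10.8, 50.9 and 79.6 rpm from e18.5 to adult. Apoc3 ranked 13th of all genes in adult, and its adult level was 9.13-fold the P7 level.

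Apoa4 was not listed at e12.5 or e15.5 and had 5.92, 42.9 and 29.6 rpm from e18.5 to adult. Apoc1 was not listed at e12.5 and had 2.60, 18.4, 41.4 and 54.5 rpm from e15.5 to adult. Both were among the lowest members at every stage at which they were listed. Apoh, the phospholipid-binding protein, had 10.2, 55.1, 268, 276 and 193 rpm in order of age, with nearly equal values at e18.5 and P7.

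Per length, the order of the members was another one. Scaled to mRNA clusters and to the length of the main transcript, Apoc3 was highest in adult liver with 10078 reads per 1e6 mRNA cluster reads and kb, followed by Apoe with 6198, Apoa2 with 5102, Apoa1 with 2156, Apoh with 1203, Apoc1 with 937, Apom with 761, Apob with 425, Apoa5 with 256 and Apoa4 with 121. No neighbours in this order lay as far apart as the members that differed most between the 2 lists of an embryonic table. At P7 the first was Apoe with 3359, and Apoc3 stood at 726, below Apoa1, Apoa2 and Apoh.

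All 7 members listed in both tables were at least 2-fold higher in adult than in e12.5, where 21.4% of the 8865 genes listed in both were. The log2 ratio was 9.61 for Apoc3 (95% interval 9.17 to 10.09, from the 41 reads at e12.5), 4.25 for Apoh, 3.98 for Apoe, 2.64 for Apob, 2.58 for Apom, 2.13 for Apoa1 and 1.96 for Apoa2, and 3.25 for the summed members (3.23 to 3.28). The members' median was 2.64 and that of all genes -0.86. Scaled to mRNA clusters, 7 of 7 were again called, against 31.5% of all genes (32.8% were called lower), with a median of 3.43 against -0.07. The smallest of these differences was Apoa2, above which 12.7% of all genes lay.

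**Figure D2:**
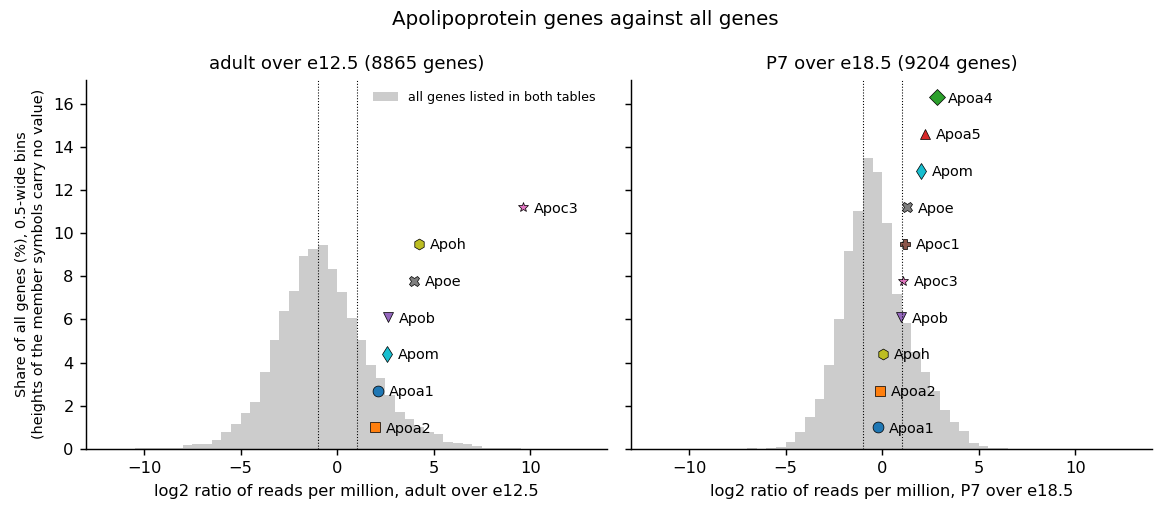
Log2 ratio of rpm between adult and e12.5 (left) and between P7 and e18.5 (right). Grey bars give the share of all genes listed in both tables per bin, symbols the apolipoprotein genes at arbitrary heights, and dotted lines the 2-fold threshold; all 7 members stand above it on the left, and Apoa1, Apoa2 and Apoh stand near 0 on the right.

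The e12.5 table names its read column as the highest number in the miRNA target and the other tables name it as the highest number in the peak, and whether these are 1 measure is not known. Against e15.5, whose column is named like that of the adult, 4 of 7 members were at least 2-fold higher in adult (16.6% of all genes), namely Apob, Apoc1, Apoe and Apoh, and 0 were lower (52.2% of all genes). Apoa1, Apoa2 and Apom had log2 ratios of 0.51, 0.77 and 0.85 there. Scaled to mRNA clusters, all 7 were called, against 32.7% of all genes (31.8% lower), and the summed members' log2 ratio was 1.94 on the first scale and 3.08 on the second. The median of all genes was -1.12 and 0.02.

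Between neighbouring stages the members differed at different times. From e12.5 to e15.5, 6 of the 6 members listed in both tables were at least 2-fold higher (25.9% of all genes), with log2 ratios from 1.05 for Apob to 2.44 for Apoh, and 0 were lower (17.8% of all genes). Scaled to mRNA clusters, that count was 3 of 6, namely Apoa1, Apoh and Apom (18.6% of all genes higher, 24.5% lower). By an alternative chosen after the values were seen, the first lists alone gave 3 of 6 (Apoa1, Apoa2 and Apoh), and the second lists alone 5 of 6 (not Apoa2). From e15.5 to e18.5, 4 of 7 were higher (29.9% of all genes), namely Apob, Apoc1, Apoe and Apoh, and Apom was lower with a log2 ratio of -1.02 (29.2% of all genes were called lower); the counts were the same scaled to mRNA clusters (29.5% of all genes higher and 29.5% lower). With the first lists alone, 2 of 6 were higher and Apoa2, not Apom, was lower (-1.12, Apom -0.18), and with the second lists 1 of 7, Apoh, was higher and Apom was lower (-1.95), so these calls depend on the list. Shares of all genes were not computed for single lists, so the single-list counts have no background beside them. From P7 to adult, 2 of 10 were higher (10.6% of all genes): Apoc3 with a log2 ratio of 3.19 (3.11 to 3.27) and Apoa2 with 1.27 (1.20 to 1.34). None was lower (42.2% of all genes), and scaled to mRNA clusters 4 of 10 were higher (19.9% of all genes) and 0 lower (26.2%). These comparisons share tables with each other.

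Across birth, from e18.5 to P7, 6 of 10 members were at least 2-fold higher (20.9% of all genes) and none was at least 2-fold lower (35.1% of all genes). The called members were Apoa4 (log2 ratio 2.86), Apoa5 (2.24), Apom (2.02), Apoe (1.27), Apoc1 (1.17) and Apoc3 (1.06). The Apoa4 call rests on 77 reads in 1 cluster at e18.5, from the first list, and Apoa4 is not in the second. The Apoa5 call rests on 140 reads at e18.5, and its log2 ratio was -0.20 when only the highest cluster of the gene was used. The Apoc1 call was lost with the first embryonic list alone (0.95), and the Apoc3 call with the second list alone (0.83) and from its highest cluster (0.74). At 4-fold, 3 of 10 members were higher (10.6% of all genes). Apob, at 0.97, lay just under the threshold and Apoc3 just over it. With single embryonic lists Apob had 0.79 (first) and 1.96 (second), so that the second list alone would call it. Apoh, Apoa2 and Apoa1 had log2 ratios of 0.05, -0.13 and -0.24, and the latter pair turned to 0.43 and 0.31 when scaled to mRNA clusters, where 7 of 10 members were called against 29.3% of all genes (23% lower, 0 members). The median of all genes was -0.45 on the first scale and 0.10 on the second.

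Other genes of lipoprotein metabolism were counted from a list of receptors, enzymes, assembly factors, transporters and regulators (30 genes) and a list of other apolipoproteins and plasma lipid carriers (14 genes). Of the 22 genes of the first list present in both tables, 14 were at least 2-fold higher in adult than in e12.5 and 3 were lower; of the 7 of the second list, 6 were higher and 0 lower. For comparison, 21.4% of all genes were higher and 47.4% lower. The median log2 ratio was 1.91 and 2.67. The lower genes included Lpl, lipoprotein lipase itself (log2 ratio -4.47, from 11.6 to 0.522 rpm), and Sort1, a sorting receptor that binds Apob (-2.20).

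In adult liver the most reads of these lists fell on Clu (clusterin, also called apolipoprotein J, 487 rpm), Ttr (transthyretin, 380 rpm) and Rbp4 (retinol-binding protein, 230 rpm). At e12.5 they fell on Ttr (59.8 rpm), Abca1, the cholesterol exporter that loads Apoa1 (50.3 rpm), and Rbp4 (41.1 rpm). Clu had a log2 ratio of 5.18 and Abca1 of 0.12 between these stages.

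From e12.5 to adult the members and the hepatocyte markers of the same tables were both higher. From e18.5 to P7 the summed markers had a log2 ratio of -0.04, or 0.51 scaled to mRNA clusters, and the summed members 0.72 and 1.27. Hepatocyte markers (Alb, Trf, Ttr, Serpina1a, Serpina1b, Fgb, Ahsg, Tat, Cps1 and Hnf4a) summed to 853, 2754, 8983, 8716 and 10554 rpm in order of age, and 9 of the 9 listed in both tables were at least 2-fold higher in adult than in e12.5. Their summed log2 ratio over these stages was 3.63 against 3.25 for the apolipoproteins. Alb alone had 342 rpm at e12.5 and 6218 rpm in adult (log2 ratio 4.19), a large part of the marker sum. The median log2 ratio of the 9 markers was 3.00, below that of the summed members, and scaling to the markers without Alb was not tried. With reads scaled to these markers, an alternative added after the values had been seen, the summed members had a log2 ratio of -0.37 and 1 of 7 members, Apoc3, was called (2.36% of all genes). From e18.5 to P7, on the same scale, 7 of 10 members were at least 2-fold higher (21.6% of all genes). How much of the members' difference comes with the hepatocyte share of the tissue cannot be told apart from a difference per cell.

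Erythroid markers ran the other way. Hba-a1, the alpha globin gene, had 29794, 37113, 44948, 16242 and 749 rpm in order of age, with the same values for its near-identical copy Hba-a2, so the counting cannot tell them apart. All 5 erythroid markers listed in both tables were lower in adult, and 3 of the 8 listed at e12.5 were not listed in adult. Afp and Dlk1, markers of fetal hepatoblasts, were listed from e12.5 to P7 (Afp at 544, 1523, 972 and 787 rpm) and not in adult. Of 5 endothelial markers all were higher in adult (14.6 to 157 rpm summed), of the 3 myeloid and Kupffer markers that both tables listed, 2 were higher, of 6 stellate and mesenchymal markers 1 was higher and 4 were lower, and of the 2 bile duct markers listed in both 1 was higher. The part of these cells in the members' levels was not tested.

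**Figure D3:**
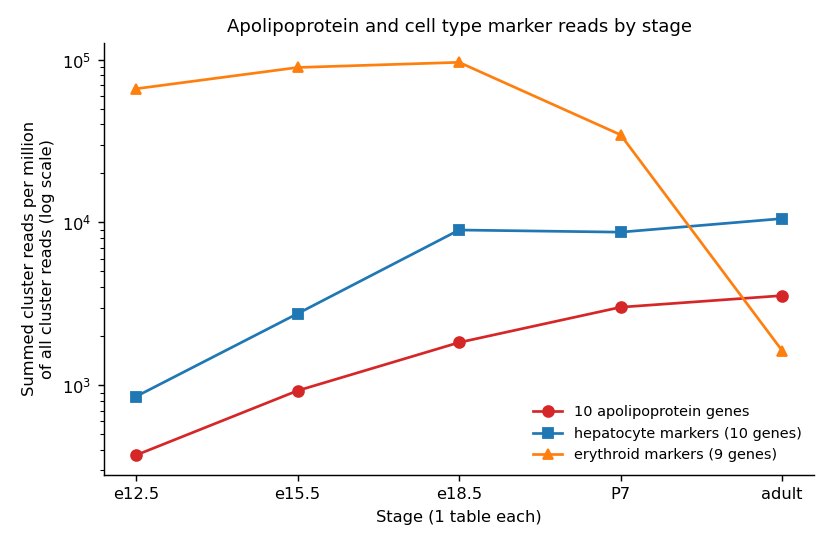
Summed rpm of all cluster reads (log scale) of the 10 apolipoprotein genes, of 10 hepatocyte markers and of 9 erythroid markers at each stage, with 1 table per stage. The apolipoproteins go from 372 to 3553 rpm beside the hepatocyte markers (853 to 10554 rpm), and the erythroid markers drop between e18.5 and adult.

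Among the 6300 genes listed at all 5 stages with at least 100 reads in at least 1 of them, the profile nearest to the summed members was that of Sc5d, with a root mean square difference of 0.177 on the centred log2 scale over the 5 tables. Ambp (0.207), Sirt3 (0.218), Tst (0.222) and Amt (0.225) followed. Of the single members listed at all 5 stages, Apob came closest to the sum (0.265), then Apoe (0.354), and Apoa2 was the farthest (0.877). Apoa4, Apoa5, Apoc1 and Apoc3 were not listed at every stage and were not compared. The sum includes the members set against it, and Apob and Apoe supply large parts of it.

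Within the mRNAs, Ago clusters of the members lay mostly in the coding sequence. In order of age there were 133, 108, 133, 231 and 231 clusters once those overlapping between lists were joined, and their sites spanned 4121, 2730, 3996, 8511 and 9839 nt. The mean was 97.7 reads per cluster at e12.5 and 383 in adult. In adult liver 91.8% of the members' clusters (212 of 231) were in CDS, against 72.9% of all mRNA clusters, and 12.6% (8.57 to 17.5) in 3′UTR, against 29.7%. Shares are over the clusters before joining. A cluster can be placed in more than 1 region, by spanning a boundary or through different transcripts, so the shares of the regions overlap. At e12.5 the CDS shares were 95.9% and 61.4%. The CDS makes up 83.9% of the members' mRNA length and the 3′UTR 10.1%, so that most of the members' mRNA is CDS.

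Apob alone holds most of that length. Without it, 80.0% of the adult clusters (69.2 to 88.4) were in CDS and 21.3% (12.7 to 32.3) in 3′UTR, against 65.5% and 21.3% of the length. The shares of clusters overlap between regions and those of length do not, so they are not strictly alike. The 3′UTRs are short, from 64 nt in Apoa1 to 285 nt in Apob, except for that of Apoa5 with 1185 nt. Apoa5 had 11 clusters in its 3′UTR at P7 and 7 in adult, whereas Apoa1 and Apoe had 1 each at both stages.

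**Figure D4:**
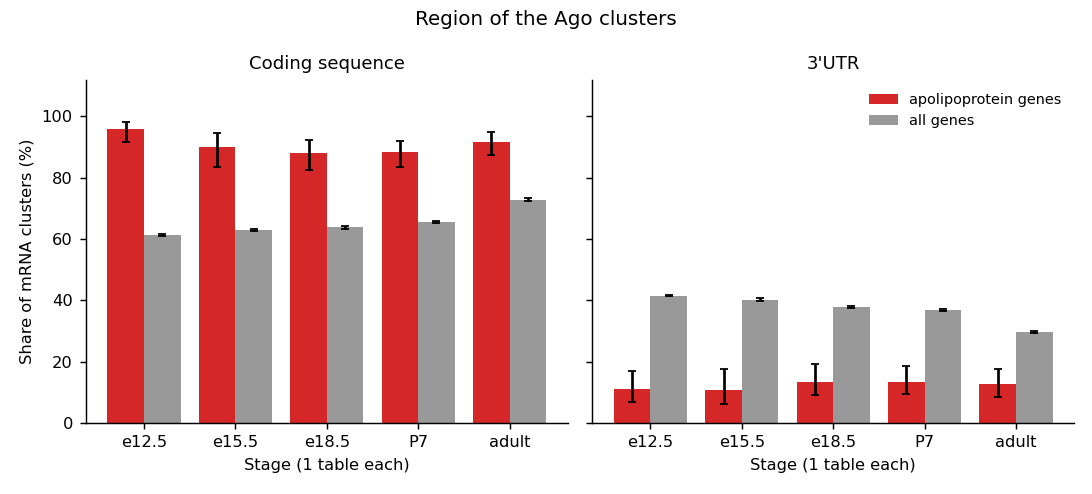
Share of mRNA clusters placed in the coding sequence (left) and in the 3′UTR (right) at each stage for apolipoprotein genes (red) and all genes (grey), with exact 95% intervals that cover counting error only. The members' CDS share lies between 88.1% and 95.9%, above that of all genes at each of the 5 stages.

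Cluster numbers alone understate how much of a mRNA was covered. Apoe had 13, 11, 16, 8 and 4 clusters in order of age, while the share of its mRNA beneath them was 58.4% at e12.5 and 94.1% in adult. The clusters had grown together, and the largest adult cluster, chr7:19696273-19697101, held sites of 102 miRNAs. For Apoc3 the share under clusters was 3.42% at e12.5 and 93.7% in adult, for Apoa1 57.5% and 82.3%, for Apoa2 77.8% and 84.8%, and for Apob 14.7% and 32.1%. A cluster counts with its highest read number only, so merging can only lower the sum over clusters.

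Reads were concentrated at a few positions. Site reads, which can differ within a cluster, are given below with the lists of a stage added. In adult Apoa1, 65.0% of the reads belonged to the cluster at chr9:46228936-46228993, whose sites run from 16 nt before the first base of the start codon to 36 nt after it on the mRNA. Its miR-29a-3p site, printed above, had 386, 603, 949, 613 and 4843 reads in order of age. In rpm these are 8.60, 36.5, 73.0, 37.2 and 195, so that adult was the highest and P7 was below e18.5. At P7 the largest Apoa1 cluster was another one, in the 5′UTR, 26 to 40 nt before the start codon, with 1469 reads.

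Apoa2 resembled Apoa1 in this respect. Its largest adult cluster, chr1:171225288-171225370 with 5214 reads and 62.0% of the gene's reads, also spans the start codon, from 27 nt before to 51 nt after its first base. The miR-16-5p 6mer printed above begins 5 nt after that base and had 1061, 586, 203, 125 and 5214 reads in order of age, fewest at P7. At every stage before adult the largest Apoa2 cluster lay further into the CDS, from 52 nt after the start codon on.

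In Apoc3, the cluster at chr9:46234416-46234541 had 8571 reads in adult, 48.2% of the gene's reads, and covers codons 21 to 60. The miR-16-5p site in it, a match of 7 bases, had 41 reads at e12.5, was not listed at e15.5, and had 35, 554 and 8571 reads from e18.5 to adult. The cluster around it was the single Apoc3 cluster listed at e12.5, with sites of 13 miRNAs.

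Apob carried a narrow position of high reads within its longest exon. The cluster at chr12:8011268-8011359, in exon 26 at codons 3250 to 3280, had 8723 reads at P7, 45.6% of the reads of the gene at that stage. The miR-139-5p site printed above, within it, had 43, 627, 883, 8723 and 2426 reads in order of age, or 0.958, 38.0, 67.9, 529 and 97.5 rpm. Sites of miR-199a-5p and miR-199b-5p (7mer-m8) beside it had the same read numbers at all 5 stages, and sites of miR-23a-3p and miR-23b-3p had 8504 reads at P7. The same position held the largest Apob cluster from e15.5 on, but not at e12.5, where the largest had 205 reads. That largest cluster held 10.9%, 9.04% and 12.2% of the gene's reads at e15.5, e18.5 and in adult, so P7 stood apart.

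In Apoe the highest adult reads lay near the stop codon. The miR-342-5p site printed above, which begins 907 nt after the first base of the start codon in a CDS of 936 nt, had 88, 697, 651, 5112 and 15895 reads in order of age. The value was lowest at e12.5, where the largest Apoe cluster lay elsewhere in the CDS with 432 reads. Nearer the start, a miR-378a-3p site at chr7:19697517-19697522 had 400, 133, 362, 1993 and 4680 reads, and the miR-136-5p site at chr7:19696554-19696559 had 349, 130 and 715 reads in the e12.5, e18.5 and P7 tables and was not listed at e15.5 or in adult. Another miR-136-5p site of Apoe, a 7mer-A1 at chr7:19696443-19696449, was listed at every stage, with 196, 111, 146, 272 and 1058 reads in order of age. The abundance of a miRNA is taken here from a number in the site names that the tables do not explain, so shares of miRNA reads and the ranks by them rest on that reading. The miRNA itself, miR-136-5p, took 3.11%, 4.53%, 2.89%, 2.40% and 0.0326% of miRNA reads in order of age. Its share was thus highest at e15.5, where the site at chr7:19696554-19696559 was not listed.

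Apoh had its largest P7 cluster at the very end of the CDS, chr11:108414267-108414305 with 1777 reads. The miR-223-3p site there is a full match of 8 bases (8mer) and had 78, 58, 502, 1777 and 424 reads in order of age. The reads were highest at P7, while miR-223-3p held 0.522%, 0.336%, 2.87%, 0.898% and 0.101% of the miRNA reads, highest at e18.5. In Apom, 83.9% of the P7 reads and 86.7% of the adult reads lay in 1 cluster each, both starting at position 35130085 of chromosome 17, near the end of the CDS.

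**Figure D5:**
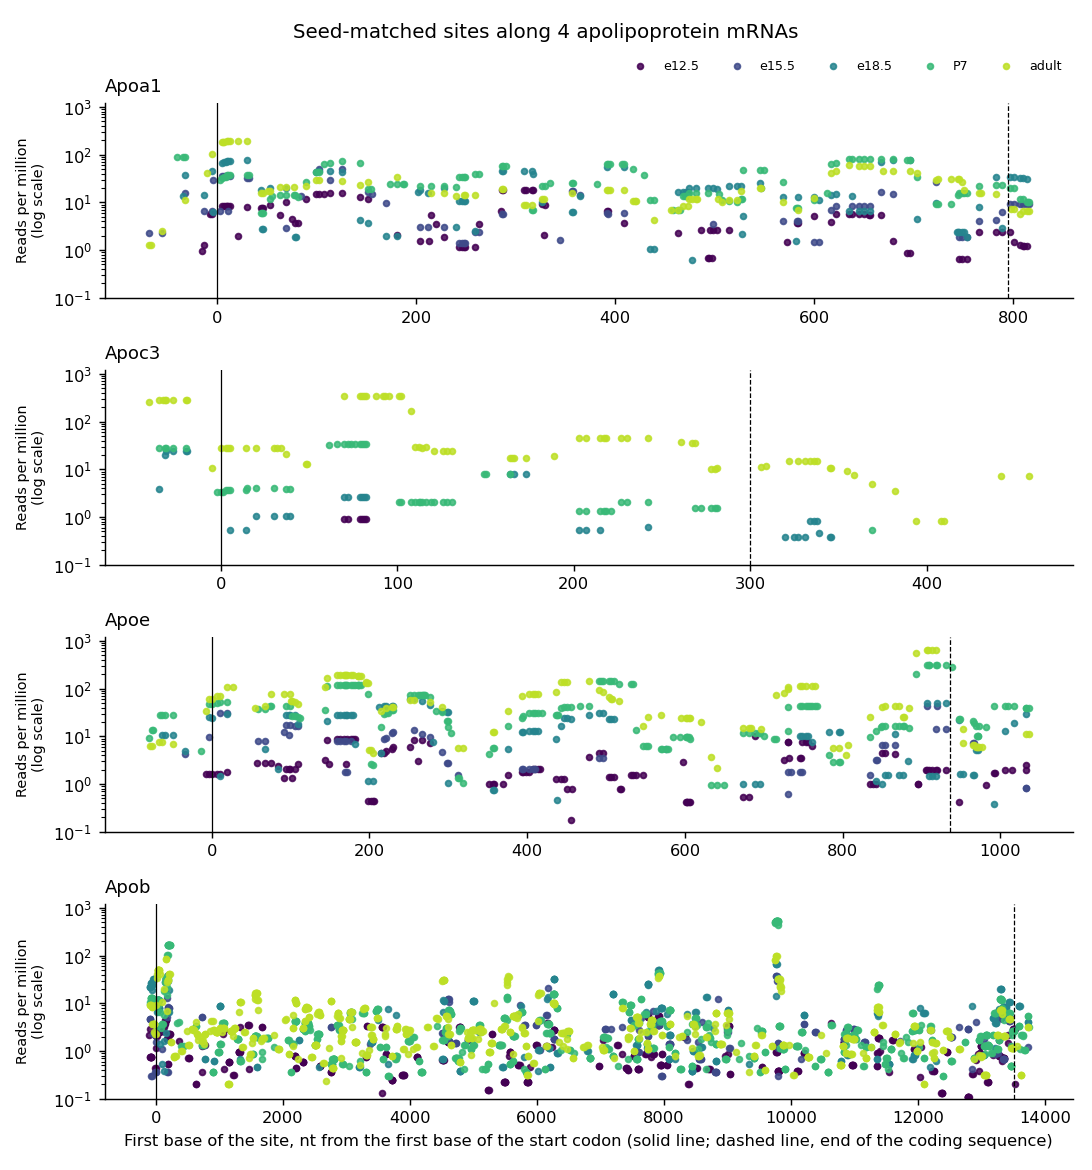
Highest rpm (log scale) at seed-matched sites of Apoa1, Apoc3, Apoe and Apob by the distance of the site from the first base of the start codon, coloured by stage. The solid line marks the start codon and the dashed line the end of the coding sequence; the adult peak of Apoa1 stands at the start codon, that of Apoe near the stop codon, and the P7 peak of Apob near 9771 nt.

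Clusters within 100 nt after the start codon held 21.6% of the members' CDS cluster reads in adult, against 11.3% for all genes, but 5.69% of the clusters (exact 95% interval 2.97 to 9.72), against 6.92% for all genes. At e12.5 the read shares were 27.4% and 5.97%, whereas at P7 that of the members did not exceed the 10.2% of all genes but was 17.5% without Apob. Most member mRNAs are short, and without Apob an even spread of the clusters over each CDS would put 14.1% of the adult ones within that window, where 18.6% lay (9.69 to 30.9). The interval of that share holds the share expected from length.

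The sites of 504 miRNAs fell in member clusters in adult liver and of 478 at e12.5, because every seed match under a cluster is listed and several miRNAs share a span. Which miRNA was bound at a position cannot be read from the tables. Of the adult clusters 52.8% (46.2 to 59.4) held a site of one of the 100 miRNAs with the most reads, against 46.8% of all mRNA clusters, and 18.6% (13.8 to 24.2) a site of the top 20, against 23.1%. At e12.5 the shares were 51.5% and 46.8% for the top 100 and 20.5% and 18.6% for the top 20. For the top 100 the members were above all genes at e18.5 (53.9% against 47.6%) and P7 (45.9% against 42.5%), but below at e15.5 (49.6% against 50.4%). Matches of 6 bases (6mer) made up 54.8% of the members' sites in adult and 52.5% of all, and 8mer sites 5.92% and 8.06%. Apob supplied 948 of the members' 1977 adult sites and 156 of their 231 clusters, and these shares were not taken without it.

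miR-122-5p, the hepatocyte miRNA that the study follows, made up 1.44%, 4.33%, 9.20%, 12.3% and 11.2% of miRNA reads in order of age. It had 6 sites in 4 members. The 7mer-A1 site in the Apob CDS at chr12:8009438-8009444 had 245, 59, 660, 704 and 942 reads from e12.5 to adult, and the 6mer in the Apoh CDS at chr11:108407327-108407332 had 59, 62, 453, 1363 and 890. The third site listed at all 5 stages was a 6mer in the Apoa1 3′UTR at chr9:46230415-46230420, 13 nt past the stop codon, with 57, 150, 427, 198 and 140 reads. The last of these was highest at e18.5 in rpm (32.8) and lower in adult (5.63), when the miRNA held more of the reads than at e18.5. The Apoh site shares its bases with sites of miR-19, miR-130 and miR-301 miRNAs.

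Other abundant miRNAs differed in their number of sites. miR-142a-3p, the most abundant miRNA at e12.5 with 32.2% of the miRNA reads, had 2 sites, in Apoa5 and Apob, of which 0 were listed at an embryonic stage. miR-144-3p (21.7% at e12.5, 1.54% in adult) had 5 sites, all in Apob, and the let-7 miRNAs let-7a-5p, let-7b-5p, let-7c-5p and let-7f-5p shared 1 site, in the Apoa5 3′UTR, listed in adult. miR-378a-3p had sites in 7 members, the most members of any of the miRNAs that ranked among the top 20 at a stage, miR-136-5p had 14 sites in 5 members, and miR-223-3p 12 sites in 5.

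Positions recurred between stages. Of the 3540 distinct member sites, 194 (5.48%) were listed at all 5 stages, against 0.912% of the 1321661 sites of all genes. With only the first list of each embryonic table, 42 member sites were, and the share over all genes was not computed for that setting. The 194 sites comprised 56 in Apob, 44 in Apoa1, 43 in Apoa2, 37 in Apoe, 13 in Apoh and 1 in Apom; sites of miRNAs with shared bases coincide. As shares of the sites of a gene these are 23.9% for Apoa2, 19.5% for Apoa1 and 37 of 295 sites for Apoe, then 5.78% for Apoh, 3.03% for Apob and 0.690% for Apom. Genes with many reads have more chances to be listed at each stage, and the part of read depth in the recurrence was not tested. Of the 194 sites, 181 were at least 2-fold higher in rpm in adult than in e12.5 and 0 at least 2-fold lower, with a median log2 ratio of 3.68 and a range of -0.19 to 8.35. Of the 12049 such sites of all genes, 33.9% were higher and 37.3% lower, with a median of -0.10. The member sites lie in 6 genes that were themselves higher in adult, so the count is not separate from the gene levels.

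The deposited conservation score of the members' CDS sites had a median of 0.506 in adult, against 0.947 over all genes, and of 0.505 against 0.982 at e12.5. The difference was found at each of the 5 stages, at which the members' medians were between 0.419 and 0.506 and those of all genes between 0.947 and 0.986. In the 3′UTR the medians in adult were 0.002 (250 sites) and 0.338. Among the sites printed above, the Apoa1, Apoc3 and Apoe sites scored 0.005, 0.005 and 0.004, the Apoh site 0.056, the Apob site 0.408 and the Apoa2 site 0.994. The sites of a gene overlap and are not independent, and no test was made. Apob supplied 948 of the members' 1977 sites in adult, and no median was taken without it.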

How the data were processed

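Seed-matched Ago HITS-CLIP sites of mouse liver were read from 1 table for each of the 5 ages. The authors trimmed reads with the FASTX-Toolkit, aligned them with Bowtie to the mouse genome (mm10; the labels also name mm9) and miRNA precursors, joined overlapping reads into clusters and listed every seed match under a cluster; tool versions are not given in the sources used here. The deposited read number is a signal, a whole number named as the highest in the peak (at e12.5, in the miRNA target), which can differ between sites of a cluster, with no scaling to library size. The deposited conservation score of a site runs from 0 to 1 and its method is not given in the sources used here.

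From these, the reads of a cluster were taken as the highest over its entries, a gene's level as the sum over its clusters, and a miRNA's abundance as the number in the interaction name, which the tables do not explain, the highest over its gene copies. The 2 lists of each embryonic table were added. Read sums, counted in 13008703 to 44867326 cluster reads per table, set the precision. Genes listed in both tables were called at 2-fold, without a test, since there is 1 table per stage; intervals are exact (Poisson, conditional binomial, Clopper-Pearson) at 95%. Transcripts were taken from GENCODE on GRCm38. The calls were tested on simulated data. Alternatives were other scalings, single lists, a minimum of 10 reads, other regions, the highest cluster, 4-fold, longer seed matches and the top 20 miRNAs.

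The members and gene lists were chosen with earlier results of these data known. All 10 members are described; of other pathway genes, the 3 with most reads in adult and in e12.5 and those in a count of 5 or fewer, of which one is not reported here; of sites, the one with most reads of a member, those of top 20 miRNAs and those listed at all stages; and the 5 genes with the nearest profile. Python 3.11.15, pandas 2.3.3, numpy 2.4.6, scipy 1.17.1 and matplotlib 3.10.9 were used.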

Additional observations from a re-analysis of the deposited data

How the results depend on the processing

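The direction of the summed apolipoprotein difference from e12.5 to adult held under each scaling except that to hepatocyte markers, added after the data had been seen. The summed log2 ratio was 4.04 scaled to mRNA clusters, 3.56 to the full library totals, 4.11 with the median over genes set equal, 2.73 with the first list and 3.60 with the second list of each embryonic table, 4.60 from the highest cluster of each gene, and -0.37 scaled to hepatocyte markers, where Apoa1 (-1.50), Apoa2 (-1.67), Apob (-0.99) and Apom (-1.05) turned too. The adult level of the summed members came to 26381, 2896, 7037 and 1530 rpm under these 4 scalings in the same order (mRNA clusters, library totals, median, hepatocyte markers) and to 1684 from the highest clusters. Scaled to hepatocyte markers, 1 of 7 members and 3 of 29 other pathway genes were at least 2-fold higher in adult (2.36% of all genes). Alb held 6218 of the 10554 rpm of these markers in adult, so that scaling leans on 1 gene. The first list alone left 13 of 22 pathway genes and 42 sites listed at all 5 stages, and shares over all genes were not computed for it. At 4-fold, 3 of 10 members were higher in P7 than in e18.5 (10.6% of all genes), and Apoa5 had a log2 ratio of -0.20 there from its highest cluster. Sites of at least 7 matched bases left 86 sites at all 5 stages and 39.4% of adult clusters with a site of a top 100 miRNA, and 18.6% held one of the top 20. The cause of these differences was not tested. In the other 60 of 80 alternatives of the main results the value stayed within its interval or within 1.5 times the count. The adult and P7 tables hold 1 list, so that the list alternatives leave their own values as they are. Such adult values are counted among the 60 although they could not differ. No paired analysis was possible because each stage has 1 table. Genes of few reads are limited by depth: the Apoc3 ratio to e12.5 rests on 41 reads.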
